A study of Homo sapiens with 4 samples.

Results

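The insulin-like growth factor (IGF) axis of DAOY cells was read from 10 genes, picked by symbol from the 20363 genes of the count table: the ligand IGF2, the receptors IGF1R and IGF2R, the adaptor IRS1, and the binding proteins IGFBP2, IGFBP3, IGFBP4, IGFBP5, IGFBP6 and IGFBP7. All 10 had a row, and 9 of them were among the 14970 genes that reached 10 counts in at least 2 libraries and were tested. IGF2 did not reach that minimum. The genes were picked by name and not by their values, but with earlier results of these data known.

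DAOY is a cell line derived from a human medulloblastoma, a tumour of the cerebellum. RNA of 4 conditions was sequenced, with 1 library per condition: cells with the ZNF521 vector under SAG, cells with that vector under DMSO, control (CTL) cells under SAG and CTL cells under DMSO. SAG is a small molecule that activates Sonic hedgehog (SHH) signalling through SMO, DMSO is its vehicle, and ZNF521 is a zinc finger co-factor of transcription. In the methods of the study the ZNF521 vector is lentiviral and marked by EGFP, for which cells were sorted, SAG was given for 48 h after 24 h of starvation, and doses ran between 2.5 and 200 nM. A legend gives 200 nM for DAOY cells read by RT-qPCR, and the sources used here do not tie a dose to the sequenced cells. The design text names the controls WT while a legend of the study gives them a control vector, so an effect of transduction and an effect of ZNF521 cannot be told apart if the controls were WT.

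IGF1 and IGF2 are small secreted growth factors that bind IGF1R, a receptor tyrosine kinase. IGF1R phosphorylates adaptors such as IRS1, through which PI3K and AKT and also RAS and MAPK signalling are engaged. IGF2R, the mannose 6-phosphate receptor, carries IGF2 to lysosomes and has no kinase of its own. The IGF binding proteins hold the ligands outside the cell, where they can keep them from the receptor or deliver them to it, and proteases that cut the binding proteins set the ligands free. In mice, Igf2 is required for medulloblastoma to form when Ptch1, the inhibitory receptor of hedgehog signalling, is mutated.

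The ZNF521 libraries held 16314685 counts (SAG) and 13366535 counts (DMSO), and the CTL libraries 12294833 (SAG) and 13468912 (DMSO). All levels below are the deposited normalized counts, which are counts divided by 1 size factor per library. ZNF521 itself had 2072 normalized counts with SAG and 2013 with DMSO in ZNF521 cells, against 751.1 with SAG and 713.7 with DMSO in CTL cells. GLI1, a target of SHH signalling, had 318.1 normalized counts in ZNF521 cells and 323.7 in CTL cells with SAG, against 44.25 and 75.39 with DMSO. ZNF521 was thus higher in the libraries labelled ZNF521, and GLI1 in the libraries labelled SAG. GLI1 was not higher with ZNF521 under either treatment, whereas the study reports an increase of GLI1 mRNA with ZNF521 by RT-qPCR in DAOY cells. The study also reports higher PTCH1 mRNA and a small rise of nuclear GLI1 protein in these cells. It further reports higher Gli1 and Ptch1 mRNA in NIH3T3 cells, and lower GLI1 and PTCH1 mRNA after ZNF521 silencing in UW228 cells. The GLI1 levels given here rest on 1 library per condition. Of 9 granule neuron lineage markers, 5 to 7 had at least 10 counts in a library and their summed normalized count was 2042 to 2251, while ATOH1 had 1 count in each library. The sum of 9 markers of other cell types was 117 to 167. These sums cover different genes and are not scaled for transcript length, so their sizes are not compared. Of 5 markers of other cell types that were tested, 1 was past the unadjusted threshold for SAG, against 11.3% of all tested genes. It was MBP, a myelin gene, with 14.34 and 28.19 normalized counts in ZNF521 and CTL cells under SAG, against 8.232 and 10.05 under DMSO. The CTL library with DMSO stood apart: 661 of the 14970 tested genes (4.42%) were at least 1.5-fold higher in it than in each of the other 3 libraries. By the same rule, set after the values were seen, 33 genes (0.22%) stood out in the library ZNF521 SAG, 58 (0.387%) in ZNF521 DMSO and 38 (0.254%) in CTL SAG. In the other direction, 551 genes (3.68%) were at least 1.5-fold lower in CTL DMSO than in each other library. That count was 147 (0.982%) for ZNF521 SAG, 136 (0.908%) for ZNF521 DMSO and 195 (1.3%) for CTL SAG. Differences between libraries also moved with transcript GC content. From the lowest to the highest quintile of GC, the median log2 ratio of SAG over DMSO in CTL cells was 0.40, 0.16, -0.02, -0.18 and -0.28. In ZNF521 cells, a pair without the CTL library with DMSO, it was 0.13, 0.09, 0.03, -0.07 and -0.18. For ZNF521 over CTL it was 0.27 in the lowest and -0.12 in the highest quintile with DMSO, against 0.0064 and -0.031 with SAG.

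The proximal promoters of 5 members are shown because these genes carried the differences described next. A window of 250 bases before to 50 bases after the start was taken from RefSeq (GRCh38.p14), where 8 of the 10 members had at least 1 window, and IGFBP7 and IGF2 had none. Capitals mark the letters GGGCGG (the GC box read by SP family factors) and TATAAA (the TATA box) on either strand. The first is IGF1R at chr15:98648289-98648588 on the plus strand, then IGF2R at chr6:159968832-159969131 on the plus strand, IGFBP4 at chr17:40443200-40443499 on the plus strand, IGFBP3 at chr7:45921223-45921522 on the minus strand and IGFBP5 at chr2:216695500-216695799 on the minus strand, each printed 5′ to 3′ along its gene.
IGF1R: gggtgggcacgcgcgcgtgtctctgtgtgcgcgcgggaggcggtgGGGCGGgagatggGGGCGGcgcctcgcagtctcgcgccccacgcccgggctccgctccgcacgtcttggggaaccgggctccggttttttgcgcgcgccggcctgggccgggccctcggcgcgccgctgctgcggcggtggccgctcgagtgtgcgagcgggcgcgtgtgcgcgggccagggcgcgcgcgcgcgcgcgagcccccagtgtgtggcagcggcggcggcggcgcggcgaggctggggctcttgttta
IGF2R: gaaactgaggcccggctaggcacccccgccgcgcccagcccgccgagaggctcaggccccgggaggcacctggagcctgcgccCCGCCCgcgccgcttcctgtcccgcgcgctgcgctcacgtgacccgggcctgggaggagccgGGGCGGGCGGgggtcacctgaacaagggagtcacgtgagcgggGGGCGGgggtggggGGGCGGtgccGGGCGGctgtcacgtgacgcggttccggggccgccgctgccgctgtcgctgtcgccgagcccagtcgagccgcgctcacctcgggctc
IGFBP4: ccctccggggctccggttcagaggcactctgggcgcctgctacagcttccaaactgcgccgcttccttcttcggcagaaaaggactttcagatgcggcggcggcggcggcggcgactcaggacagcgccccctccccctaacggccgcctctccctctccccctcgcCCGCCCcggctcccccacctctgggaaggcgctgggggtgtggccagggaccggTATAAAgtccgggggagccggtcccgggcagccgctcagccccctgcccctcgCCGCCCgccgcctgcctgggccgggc
IGFBP3: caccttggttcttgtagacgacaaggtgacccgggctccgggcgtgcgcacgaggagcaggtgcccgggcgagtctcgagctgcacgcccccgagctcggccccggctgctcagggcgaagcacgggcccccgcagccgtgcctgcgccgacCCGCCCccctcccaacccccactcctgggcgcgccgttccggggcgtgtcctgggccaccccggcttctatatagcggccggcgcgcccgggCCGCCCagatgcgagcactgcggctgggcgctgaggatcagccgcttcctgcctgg
IGFBP5: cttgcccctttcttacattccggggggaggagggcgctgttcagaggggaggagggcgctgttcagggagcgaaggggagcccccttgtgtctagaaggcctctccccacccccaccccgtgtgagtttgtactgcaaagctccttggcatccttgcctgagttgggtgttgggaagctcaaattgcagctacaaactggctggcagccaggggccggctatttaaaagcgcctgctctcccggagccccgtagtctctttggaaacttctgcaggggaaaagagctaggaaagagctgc
The IGF2R window held 6 GC boxes and those of IGF1R, IGFBP4 and IGFBP3 held 2 each, while the IGFBP5 window held 0. Of 35116 promoter windows of this length, 45.0% held a GC box. Of the members with a window only IGFBP4 had TATAAA, which 11.5% of all windows held. The windows of IGF1R and IGF2R were 79.7% and 78.7% GC, that of IGFBP5 59.0%, against a median of 58.7% over all windows. Among members not shown, the IRS1 window was 79.3% GC with 4 GC boxes, and the IGFBP6 window 61.7% GC with 1. The IGFBP2 windows held 1, 1 and 0 GC boxes at 55.3%, 70.0% and 56.7% GC. High GC and GC boxes were thus not particular to the members shown. GACCACCCA, the GLI consensus, was in 0 of the 10 windows of the members and in 0.236% of all windows. CCCNNGGG, a core bound by EBF factors, was also in 0 of the 10, against 19.1% of all windows. Matches on both strands were counted, overlapping ones included, and a match is a description of letters and not a binding site.

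Per kb of transcript, the binding proteins other than IGFBP7 had the highest mean levels of the axis, and the ligand was at or near 0. Per kb of the annotated canonical transcript, IGFBP4 had the highest mean over the 4 libraries, 1733 normalized counts per kb, followed by IGFBP6 with 1083, IGFBP5 with 876, IGFBP2 with 768 and IGFBP3 with 498. IGF2R averaged 391 normalized counts per kb, IGFBP7 171, IGF1R 138 and IRS1 50.1. IGFBP4 lay above IGFBP6 in every library. The range of IGFBP5 over libraries overlapped those of IGFBP6, IGFBP2, IGFBP3 and IGF2R. The ranges of IGFBP3 and IGF2R, and of IGFBP7 and IGF1R, also overlapped. The order within these pairs was thus not larger than the spread between libraries. In ZNF521 cells with DMSO, IGFBP3 (605 per kb) was above IGFBP5 (583 per kb). Lengths come from the annotation and not from the transcripts used in these cells.

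**Figure D1:**
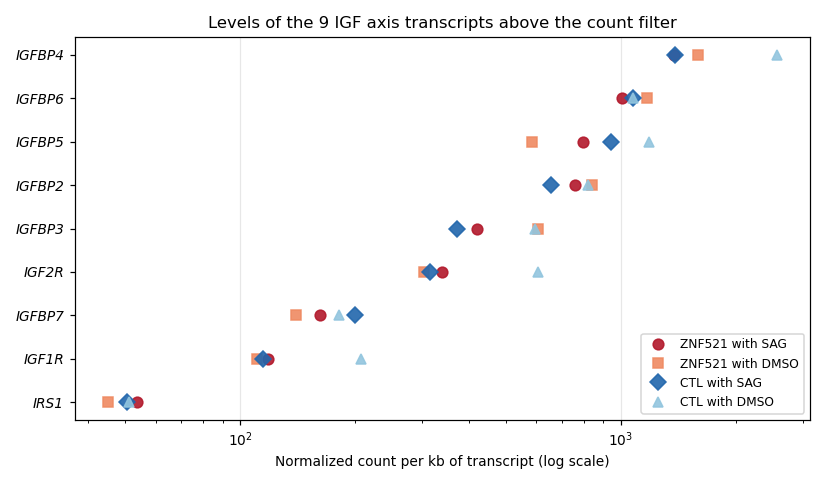
Normalized counts per kb of transcript (log axis) of the 9 tested members, with 1 point for each of the 4 libraries. IGFBP4 is at the top with a mean of 1733 per kb and IRS1 is at 50.1 per kb.

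IGF2 was not detected above counting noise in any library. It had 1 count with SAG and 0 with DMSO in ZNF521 cells, against 0 with SAG and 1 with DMSO in CTL cells. A count of 0 allows up to 3 counts, which is 3.09 normalized counts for ZNF521 under DMSO and 3.38 for CTL under SAG. The gene lies at chr11:2129112-2158391 on the minus strand (hg38), and 43.16% of its exon bases are shared on that strand with other annotated genes, INS-IGF2 among them. Reads that lie in more than 1 gene may be left uncounted, so its level is uncertain. The other ligand, IGF1, was also low, with 3.38 and 8.23 normalized counts with SAG and DMSO in ZNF521 cells, against 3.38 and 4.02 in CTL cells. IGF1 shares 82.48% of its exon bases with a gene on the opposite strand.

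The type 1 and type 2 receptors had one pattern, in which the CTL library with DMSO was high and the other 3 libraries were close to each other. IGF1R (chr15:98648539-98964530, plus strand) had 1449 normalized counts with SAG and 1355 with DMSO in ZNF521 cells, against 1410 with SAG and 2540 with DMSO in CTL cells. A lower level in every cell and expression in fewer of the cells cannot be told apart in such bulk RNA. IGF2R (chr6:159969082-160113507, plus strand) had 4766 and 4274 with SAG and DMSO in ZNF521 cells, against 4448 and 8502 in CTL cells. CTL cells with DMSO were 1.75-fold above the next highest library for IGF1R and 1.78-fold for IGF2R. Per kb, the ratio of IGF2R to IGF1R was 2.86, 2.74, 2.75 and 2.91 in the same order of libraries, so the receptors differed between libraries by similar factors.

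Set in pairs of libraries, IGF1R was 0.534 times its CTL level in ZNF521 cells with DMSO (exact 95% interval 0.499 to 0.570) and 1.028 times in ZNF521 cells with SAG (0.955 to 1.106). IGF2R was 0.503 times its CTL level with DMSO (0.484 to 0.522) and 1.072 times with SAG (1.029 to 1.116). SAG went with an IGF1R ratio of 1.069 in ZNF521 cells (0.994 to 1.149) and 0.555 in CTL cells (0.518 to 0.594), and with an IGF2R ratio of 1.115 (1.071 to 1.161) and 0.523 (0.504 to 0.543). These intervals cover counting error only and not the spread between cultures, which the 1 library per condition does not show. The median log2 ratio of genes with a like transcript GC content was -0.04 for ZNF521 in DMSO and -0.02 for SAG in CTL cells, beside -0.99 and -0.93 for IGF2R.

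Over both treatments, IGF1R was lower with ZNF521 by the edgeR quasi-likelihood test with treatment as block (log2 fold change -0.45, SE 0.199, unadjusted p = 0.0435, adjusted p = 0.909). Without the CTL library with DMSO the IGF1R value was -0.0024, and without the CTL library with SAG it was -0.87, so its size depended on the CTL library kept. The value was -0.45 without ZNF521 DMSO and -0.56 without ZNF521 SAG, neither past the threshold. IGF2R did not pass the unadjusted threshold for ZNF521 (log2 fold change -0.46, SE 0.224, unadjusted p = 0.0621) or for SAG (-0.39, SE 0.224, unadjusted p = 0.106), and IGF1R did not for SAG (-0.38, SE 0.199, unadjusted p = 0.0807). An interaction of vector and treatment has no residual degree of freedom in 4 libraries and was not tested.

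IRS1 (chr2:226731312-226799820, minus strand), the adaptor that links IGF1R to PI3K, differed little between libraries. It had 523.9 and 440.4 normalized counts with SAG and DMSO in ZNF521 cells, against 493.9 and 498.6 in CTL cells. The groups overlapped in both comparisons. The SAG ratio in ZNF521 cells was 1.190 (exact 95% interval 1.050 to 1.349), and in CTL cells it was 0.991 (0.869 to 1.129). The fitted log2 fold change was -0.06 for ZNF521 (SE 0.162, unadjusted p = 0.729) and 0.12 for SAG (SE 0.162, unadjusted p = 0.474).

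IGFBP3, the main carrier of IGFs in serum, was lower with SAG in both kinds of cells. It had 1098 normalized counts in ZNF521 cells and 972.1 in CTL cells with SAG, against 1582 in ZNF521 cells and 1550 in CTL cells with DMSO. Both SAG libraries lay below both DMSO libraries, and the DMSO libraries were close to each other. The level with SAG was 0.694 times that with DMSO in ZNF521 cells (exact 95% interval 0.644 to 0.748) and 0.627 times in CTL cells (0.576 to 0.682). In the fit this was a log2 fold change of -0.60 (SE 0.148, unadjusted p = 0.00143, adjusted p = 0.391), the smallest unadjusted p of the 9 members in either comparison. The direction was the same without each library in turn, between -0.69 and -0.51. For ZNF521 the IGFBP3 value was 0.09 (SE 0.148, unadjusted p = 0.553). The gene lies at chr7:45912245-45921874 on the minus strand, and IGFBP1, which lies 18584 bases from it, was near 0 with 2.53 and 8.23 normalized counts with SAG and DMSO in ZNF521 cells, against 1.13 and 0 in CTL cells.

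IGFBP4 (chr17:40443450-40457725, plus strand), a binding protein best known for holding IGFs back until it is cleaved by PAPPA, combined the SAG difference with the high level of the CTL library with DMSO. It had 3047 normalized counts in ZNF521 cells and 3059 in CTL cells with SAG, against 3521 in ZNF521 cells and 5656 in CTL cells with DMSO. The 2 SAG libraries were nearly equal, and the CTL library with DMSO was 1.61-fold above the next highest. The level with SAG was 0.865 times that with DMSO in ZNF521 cells (0.825 to 0.907) and 0.541 times in CTL cells (0.516 to 0.566). The fitted log2 fold change for SAG was -0.55 (SE 0.181, unadjusted p = 0.00978, adjusted p = 0.391). Leaving out CTL DMSO gave -0.21, and leaving out ZNF521 DMSO gave -0.90. Without either SAG library (-0.59 each) it no longer passed. The IGFBP4 transcript is 62.6% GC, in the highest quintile, where the median log2 ratio of all genes was -0.18 for SAG in ZNF521 cells and -0.28 for SAG in CTL cells, against -0.21 and -0.89 for IGFBP4. With GC offsets the SAG value was -0.32 (unadjusted p = 0.0783). For ZNF521 the level was 0.996 times that of CTL cells with SAG (0.947 to 1.047) and 0.623 times with DMSO (0.596 to 0.650), and the fitted value was -0.36 (SE 0.180, unadjusted p = 0.0694).

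IGFBP5, a binding protein that attaches to extracellular matrix, was lower with ZNF521 under both treatments. It had 4952 normalized counts with SAG and 3640 with DMSO in ZNF521 cells, against 5878 with SAG and 7395 with DMSO in CTL cells. Both ZNF521 libraries lay below both CTL libraries. The level with ZNF521 was 0.843 times that of CTL cells with SAG (0.812 to 0.875) and 0.492 times with DMSO (0.473 to 0.512). The fit gave a log2 fold change of -0.65 (SE 0.194, unadjusted p = 0.00549, adjusted p = 0.746), the largest fitted change of a member for ZNF521. Without the ZNF521 library with DMSO it was -0.43 (unadjusted p = 0.134). With SAG, IGFBP5 was 1.361 times its DMSO level in ZNF521 cells (1.305 to 1.419) and 0.795 times in CTL cells (0.767 to 0.824). The directions were opposite, and the fitted log2 fold change over both kinds of cells was 0.06 (SE 0.193, unadjusted p = 0.778).

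IGFBP5 and IGFBP2 lie 7668 bases apart and face each other on chromosome 2, IGFBP5 at chr2:216672105-216695549 on the minus strand and IGFBP2 at chr2:216632828-216664436 on the plus strand. IGFBP2 had 1073 normalized counts with SAG and 1184 with DMSO in ZNF521 cells, against 928.1 with SAG and 1161 with DMSO in CTL cells. The neighbours thus differed in which library was lowest. IGFBP2 was lower with SAG in each kind of cells, at 0.906 (0.836 to 0.982) and 0.799 (0.730 to 0.875) of its DMSO level, and the fitted value of -0.23 did not pass (SE 0.151, unadjusted p = 0.148). The IGFBP2 transcript is 67.4% GC, in the highest quintile, and with GC offsets the SAG value was 0.04.

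IGFBP7 (chr4:57030773-57110385, minus strand), a distant relative with low affinity for IGFs, had 231.2 and 199.6 normalized counts with SAG and DMSO in ZNF521 cells, against 285.3 and 259.3 in CTL cells. Both ZNF521 libraries were below both CTL libraries, at 0.810 (0.680 to 0.965) and 0.770 (0.636 to 0.931) of the CTL level with SAG and DMSO. The fitted value of -0.35 did not pass (SE 0.169, unadjusted p = 0.0590). Of its exon bases, 18.34% lie opposite another gene. IGFBP6 (chr12:53097436-53102345, plus strand), which prefers IGF2 as its ligand, stayed between 955.9 and 1110 normalized counts in all 4 libraries. Its fitted values were 0.00 for ZNF521 (SE 0.151, unadjusted p = 0.976) and -0.11 for SAG (SE 0.151, unadjusted p = 0.495).

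**Figure D2:**
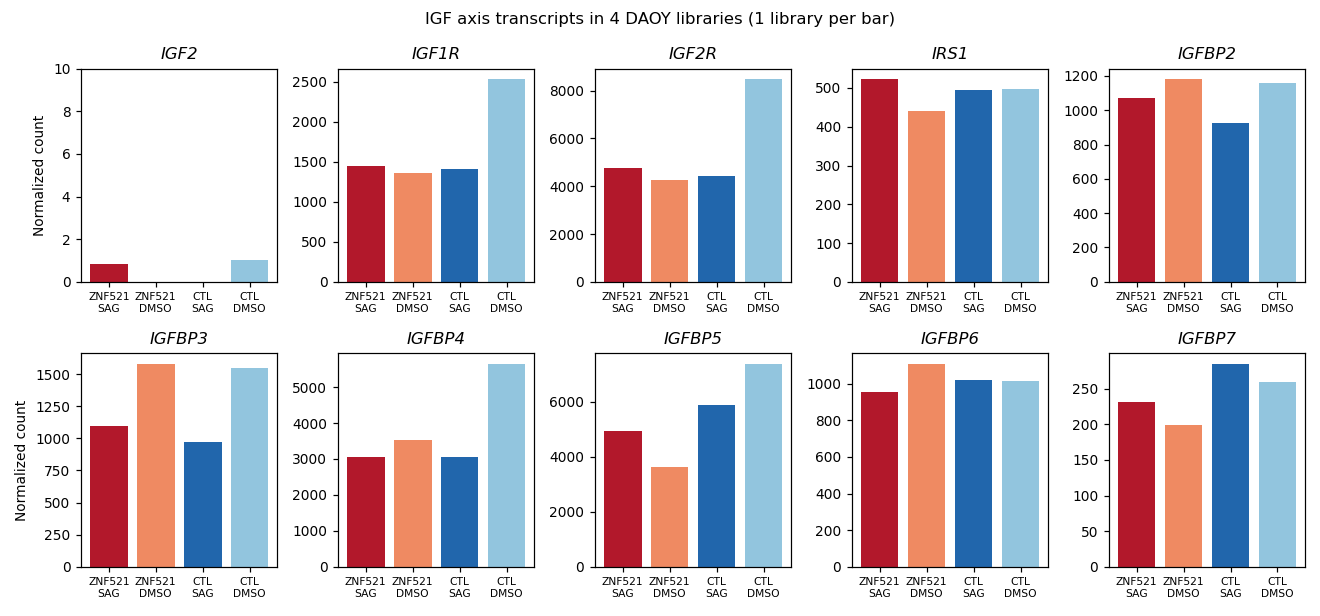
Normalized counts of each member in the 4 libraries, 1 bar per library with no replicate, in the order ZNF521 SAG, ZNF521 DMSO, CTL SAG and CTL DMSO. IGF1R, IGF2R and IGFBP4 are highest in CTL DMSO (2540, 8502 and 5656), and IGFBP3 is lower in both SAG libraries.

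Summed over the 6 binding proteins, normalized counts per kb were 4526 and 4935 with SAG and DMSO in ZNF521 cells, against 4636 and 6421 in CTL cells. IGFBP4 made up 30.5% and 32.4% of this sum in ZNF521 cells with SAG and DMSO, against 29.9% and 40.0% in CTL cells. IGFBP5 made up 17.5% and 11.8%, against 20.3% and 18.5%. The sum was highest in CTL cells with DMSO, where the IGFBP4 share was also highest.

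At or under an unadjusted p of 0.05, 2 of 9 members passed for ZNF521 (IGFBP5 and IGF1R, both lower), against 5.48% of all tested genes, and 2 of 9 for SAG (IGFBP3 and IGFBP4, both lower), against 11.3%. With p adjusted over all 14970 genes by Benjamini-Hochberg in edgeR, 0 of 9 passed for ZNF521 and 0 of 9 for SAG, against 0.00668% and 0.0401% of all genes, and 0 of 9 passed with DESeq2 and with limma in each comparison. The median log2 fold change of the 9 members was -0.35 for ZNF521 and -0.23 for SAG, beside -0.0034 and 0.00055 over all tested genes. In each comparison 6 of 9 members were lower, against 7577 of all 14970 genes for ZNF521 and 7473 for SAG. In 2 of 9 members (IGFBP5 and IGFBP7) the ZNF521 libraries did not overlap the CTL libraries, against 26.4% of all genes. In 3 of 9 (IGFBP2, IGFBP3 and IGFBP4) the SAG libraries were both below the DMSO libraries, against 22.7%. The ZNF521 and SAG comparisons use the same 4 libraries.

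Past 1.5-fold in a single pair of libraries were 4 of 9 members for ZNF521 in DMSO (IGFBP4, IGFBP5, IGF1R and IGF2R), against 15.7% of all genes, and 0 of 9 for ZNF521 in SAG, against 6.25%. For SAG, 4 of 9 passed in CTL cells (IGFBP3, IGFBP4, IGF1R and IGF2R), against 19.4%, and 0 of 9 in ZNF521 cells, against 6.63%. The 8 ratios past 1.5-fold all have CTL cells with DMSO as their divisor. At least 1.5-fold above each other library in CTL cells with DMSO were 3 of 9 (IGFBP4, IGF1R and IGF2R), against 4.42% of all genes. This last rule was set after the values were seen.

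**Figure D3:**
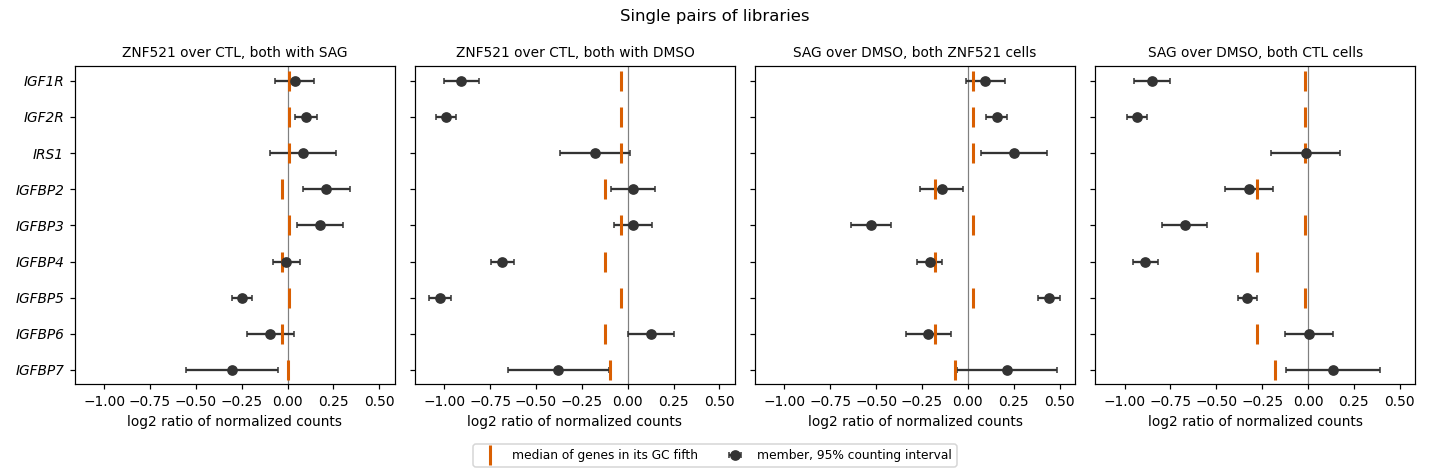
Log2 ratio of normalized counts in 4 pairs of libraries for the 9 tested members, with exact 95% intervals that cover counting error only. Orange marks give the median of the genes in the GC quintile of each member. Before the log2, the ratios of IGF1R and IGF2R are 0.534 and 0.503 for ZNF521 in DMSO and 1.028 and 1.072 for ZNF521 in SAG.

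The rest of the pathway was read from lists of its genes, chosen with earlier results of these data known, and none of their genes passed the adjusted threshold in this fit. Their counts are read against the 5.48% of all tested genes that passed the unadjusted threshold for ZNF521 and the 11.3% that passed it for SAG. Of 11 other ligands, receptors, adaptors and carriers tested, 0 were higher and 1 was lower past the unadjusted threshold for ZNF521, and 0 in either direction for SAG. The 1 was INSRR, a relative of the insulin receptor, with 16.87 and 12.35 normalized counts in ZNF521 cells with SAG and DMSO, against 24.81 and 53.28 in CTL cells (log2 fold change -1.35, SE 0.411, unadjusted p = 0.00596). It did not pass with DESeq2, without CTL DMSO (-0.74) or without ZNF521 DMSO (-1.22). The insulin receptor gene INSR, whose product shares ligands and adaptors with IGF1R, had 799.0 and 713.1 normalized counts in ZNF521 cells with SAG and DMSO, against 726.2 and 983.1 in CTL cells. It was also highest in CTL cells with DMSO, and its fitted values of -0.17 for ZNF521 and -0.14 for SAG did not pass (unadjusted p = 0.336 and 0.450). IRS2, the second common adaptor, had 168.7 and 177.0 normalized counts in ZNF521 cells with SAG and DMSO, against 166.9 and 199.0 in CTL cells.

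Of 20 proteases that cut binding proteins and their inhibitors, 2 were higher and 3 lower past the unadjusted threshold for ZNF521, against 5.48% of all genes, and 0 for SAG, against 11.3%. STC1, an inhibitor of the protease PAPPA, had 316.4 and 307.7 normalized counts in ZNF521 cells with SAG and DMSO, against 215.4 and 181.9 in CTL cells (log2 fold change 0.64, SE 0.170, unadjusted p = 0.00239, adjusted p = 0.679). HTRA1, a secreted serine protease with an IGF binding protein domain, had 1435 and 1475 against 1695 and 2127 (-0.40, unadjusted p = 0.0203). The gelatinase gene MMP2 had 2371 and 2257 against 2484 and 4003 (-0.46, unadjusted p = 0.0271). MMP9 had 50.62 and 67.91 against 38.34 and 28.15 (0.82, unadjusted p = 0.0182). Leaving out CTL DMSO brought MMP2 to -0.10, HTRA1 to -0.22 and MMP9 to 0.62, none of them past the threshold, while STC1 was 0.54 and passed. Without ZNF521 DMSO none of these 4 passed, and without ZNF521 SAG only MMP9 did. HTRA1 and MMP9 also did not pass with DESeq2. MMP7, lower as well, had at most 30.45 normalized counts in a library. Of 9 genes of IGF2 mRNA binding and IGF2 transcription, HMGA2, a chromatin protein, was higher with SAG, with 1208 normalized counts in ZNF521 cells and 1042 in CTL cells, against 776.9 and 712.7 with DMSO (log2 fold change 0.59, unadjusted p = 0.00177). Without ZNF521 SAG it was 0.48 and did not pass. Of 13 genes whose products share the N-terminal domain of the binding proteins, 5 were tested, and HTRA1 was the 1 past the threshold.

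In the branches after the receptor, 1 of 26 PI3K, AKT and MTOR genes was lower for ZNF521 and 1 lower for SAG past the unadjusted threshold. PIK3CB, a catalytic subunit of PI3K, had 243.8 and 219.2 normalized counts in ZNF521 cells with SAG and DMSO, against 248.1 and 428.2 in CTL cells (log2 fold change -0.51, unadjusted p = 0.0333), which is again high in CTL cells with DMSO. Without that library PIK3CB was at -0.09, and without CTL SAG it was at -0.90. It was at -0.48 without ZNF521 DMSO and at -0.65 without ZNF521 SAG. The PIK3CB call was lost with DESeq2 and with no block. INPPL1, a phosphatase of PI3K products, had 2496 in ZNF521 cells and 2383 in CTL cells with SAG, against 2972 and 3226 with DMSO (-0.34, unadjusted p = 0.0381). Its transcript is in the highest GC quintile, and the call was lost with GC offsets (-0.14), with DESeq2, and without CTL SAG (-0.31) or ZNF521 SAG (-0.38). Of 22 RAS and MAPK genes, 1 was higher for ZNF521 (DUSP6, a phosphatase of ERK, 0.39, unadjusted p = 0.0258). The DUSP6 call was lost with DESeq2 and with no block. SOS2, an exchange factor of RAS, was at 0.37 for SAG (unadjusted p = 0.0442), a call lost with GC offsets (0.15), DESeq2, no block, library size alone and a mean count minimum of 50. Without CTL DMSO, SOS2 was at 0.15 and DUSP6 at 0.20, and neither passed. Each passed in 1 of the 4 fits that leave out a library, SOS2 without ZNF521 DMSO and DUSP6 without CTL SAG.

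Of 11 transcripts known as targets of FOXO factors, which AKT holds out of the nucleus, 2 were higher for ZNF521 (PCK1 and TXNIP), and for SAG 1 was higher (SESN3) and 1 lower (PCK1). PCK1, the rate-limiting enzyme of gluconeogenesis, had 59.90 and 135.8 normalized counts in ZNF521 cells with SAG and DMSO, against 19.17 and 27.14 in CTL cells. The log2 fold change for ZNF521 was 2.02 (SE 0.290, adjusted p = 0.0815), past the unadjusted threshold without each library in turn. For SAG it was -0.97 (unadjusted p = 0.00445), but 0.60 without ZNF521 DMSO, and it did not pass with DESeq2, no block or without CTL SAG (-0.44). TXNIP, an inhibitor of thioredoxin, had 1983 and 2457 against 1538 and 1783 (0.40, unadjusted p = 0.0152), and was at 0.25, not past the threshold, without ZNF521 DMSO. SESN3, a sestrin, was at 0.36 for SAG, a call lost with GC offsets (0.06), DESeq2, library size alone and a mean count minimum of 50, and without CTL SAG (0.36) or ZNF521 SAG (0.33). The list medians for ZNF521 and SAG were 0.04 and -0.14 for FOXO targets, 0.01 and 0.13 for RAS and MAPK genes, -0.04 and -0.03 for PI3K genes, -0.03 and -0.09 for proteases and 0.0066 and -0.16 for the other ligands and receptors.

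**Figure D4:**
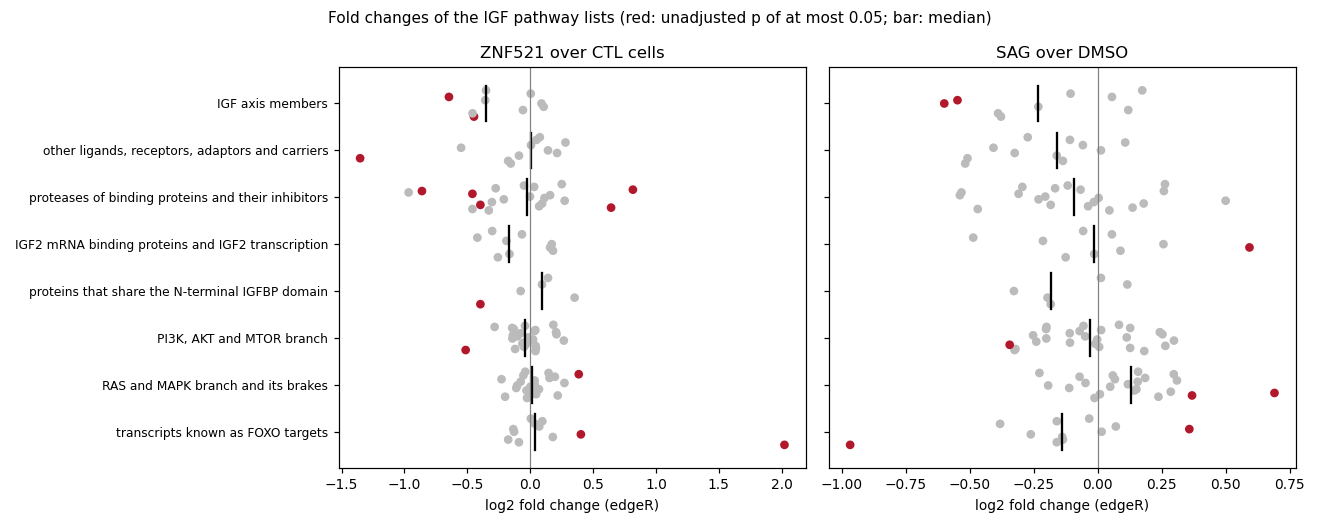
Fitted log2 fold changes of the tested genes of each list (points) with the list's median (bar), for ZNF521 over CTL and for SAG over DMSO, with those at or under an unadjusted p of 0.05 in red. The median of the 9 members is -0.35 for ZNF521 and -0.23 for SAG.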

How the data were processed

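RNA of DAOY cells was sequenced in paired 50 nt reads from stranded libraries. Alignment to hg38 and counting by gene were done by the authors with STAR (2.7.0e in their processing notes), and the deposited counts cover 20363 genes. The values of the deposited normalized table (19860 genes) are a signal, namely counts that the authors divided by 1 size factor per library as in DESeq2. The annotation and strand setting of the counting are not given in the sources used here, and 0 columns of samples were left unused.

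Genes that reached 10 counts in 2 or more libraries (14970) were tested in R 4.3.3 with edgeR 4.0.16 (TMM, glmQLFit, glmQLFTest), with treatment and vector as additive terms and 1 residual degree of freedom, moderated by a prior of 11.7. Benjamini-Hochberg adjustment ran over all of these genes, beside the unadjusted p of 0.05 that the study used. The SE is the log2 fold change divided by the root of F. With 1 library per condition, the residual spread in this fit is the departure from additive effects of vector and treatment, moderated across genes. SE and p rest on that departure and not on a spread between replicates. Ratios of 2 libraries have exact 95% intervals (Clopper-Pearson, scipy 1.17.1, Python 3.11.15). Alternatives were RLE factors, GC offsets over 20 bins, library size alone, no filter, a mean count minimum of 50, limma-trend 3.58.1, DESeq2 1.42.0, no block, and each library left out, with the remaining 3 fitted on the factor alone. The edgeR fit was also run on simulated counts with set fold changes for 1 factor at a time. Those counts had no GC trend, interaction or deviating library, so that run does not cover these features. Loci, lengths and GC content came from GENCODE for hg38.

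The 10 members are named in full, with IGFBP1, IGF1, INSR and IRS2 whatever their values, and of each other list up to 4 genes of smallest unadjusted p at or under 0.05. Some results of these lists are not reported here. Members and lists were chosen with earlier results of these data known.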

Additional observations from a re-analysis of the deposited data

Results flagged for a closer look

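The pairs of libraries pointed in opposite directions for IGFBP5 and IGF2R, with both counting intervals clear of no change. IGFBP5 with SAG over DMSO was 0.44 on the log2 scale in ZNF521 cells and -0.33 in CTL cells. IGF2R with ZNF521 over CTL was 0.10 with SAG and -0.99 with DMSO, and IGF2R with SAG over DMSO was 0.16 in ZNF521 cells and -0.93 in CTL cells. The difference between these effects was not tested, since each condition has 1 library. The negative values of IGF2R and of IGFBP5 all have CTL cells with DMSO as their divisor, and the part of that library in the difference was not tested.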

How the results depend on the processing

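Of 216 alternative values of the 9 members, 177 kept their direction and their side of the unadjusted threshold, 14 moved past it, 10 no longer passed and 15 changed sign. IGFBP3 for SAG passed in all 8 alternatives that keep the 4 libraries (-0.62 to -0.56) and without each library, and so did IGFBP5 for ZNF521 in those 8 (-0.65 to -0.60). With no filter on low counts, adjusted p was 0.0328 for IGFBP3 and 0.0346 for IGFBP5. IGF1R for ZNF521 did not pass with DESeq2, GC offsets or no block.

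For ZNF521, members past the unadjusted threshold were 4 with no filter and 1 with DESeq2, with GC offsets and with no block, and 0 to 4 without each library. For SAG they were 4 with no filter and 1 with GC offsets, and 1 to 6 without each library. All genes past it for ZNF521 were 1259 with no filter, 167 with DESeq2 and 444 with no block (120 to 4141 without each library), and for SAG 424 with DESeq2 and 680 with GC offsets (305 to 6061). Past the adjusted threshold were, for ZNF521, 100 with no filter and 4 with GC offsets (0 to 2340 without each library), and for SAG, 223 with no filter and 0 with no block (0 to 4513).

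With GC offsets the SAG log2 fold change became 0.039 for IGFBP2, 0.17 for IGFBP6 and 0.011 for IRS2, and with no block that of IGFBP5 became -0.031. Without each library in turn, ranges that crossed 0 were, for ZNF521, -0.058 to 0.29 (IGFBP2), -0.23 to 0.47 (IGFBP3), -0.80 to 0.11 (IGFBP4), -0.096 to 0.11 (IGFBP6), -0.93 to 0.029 (IGF2R), -0.19 to 0.075 (IRS1), -0.39 to 0.064 (INSR) and -0.22 to 0.054 (IRS2). For SAG they were -0.46 to 0.57 (IGFBP5), -0.027 to 0.36 (IGFBP7), -0.84 to 0.072 (IGF1R), -0.89 to 0.10 (IGF2R), -0.37 to 0.095 (INSR) and -2.07 to 0.60 (PCK1). With 3 libraries the lone one is assumed to vary like the others, and the groups are unbalanced in the other factor. The cause of these shifts was not tested. The labels give no replicate numbers. Libraries were compared within treatment and within kind of cells by the blocks of the fit, and the values with no block above are the unpaired ones. Depth limits IGF2, IGF1 and IGFBP1, which are at or near the 3 counts that a count of 0 allows.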
